A study of Mus musculus with 14 samples.

Results

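Cells make cholesterol and fatty acids from the same precursor, acetyl-CoA, along 2 branches. A set of 29 genes of these branches was followed across 14 mouse lung tumours by taking the rows of the deposited expression table whose Ensembl identifiers map to the listed symbols. All 29 were found among 46517 gene rows, and all 29 passed the filter used for testing, a minimum FPKM (fragments scaled to transcript length and to the depth of the library) of 1 in 3 or more libraries. The set was divided into a sterol branch of 18 enzymes, a fatty acid branch of 7 enzymes, and 4 genes of control and transport.

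The tumours are models of small cell lung cancer, a neuroendocrine cancer of the lung. RPM tumours (n = 11) came from mice with floxed Rb1 and Trp53 and a Cre-activated Myc T58A allele, and RPR2 tumours (n = 3) from mice with floxed Rb1, Trp53 and Rbl2, which encodes p130. The source names give LSL/LSL, 2 copies of the Myc allele, for 9 RPM tumours and LSL/+, 1 copy, for RPM replicates 2 and 4. In both models an adenovirus delivered Cre under the Cgrp promoter, on in neuroendocrine cells, so Rb1 and Trp53 deletion is shared by all 14 tumours and there is no normal tissue for comparison. The tumours were untreated and were cut out of the lung by eye, so each library can hold RNA of lung tissue. Ages are not given. Nothing in the labels says that each tumour came from its own mouse, and the titles of RPM replicates 6 and 7, and of RPM replicates 10 and 11, share a number. P-values therefore measure only the spread between these samples, which may in part be technical.

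In the sterol branch, acetyl-CoA units are joined to HMG-CoA and mevalonate, turned into isoprene units, condensed to squalene, closed into the ring of lanosterol and trimmed to cholesterol. In the fatty acid branch, acetyl-CoA is carboxylated to malonyl-CoA, built into palmitate, lengthened, desaturated and coupled to coenzyme A. Transcription of both branches is driven by the membrane-bound factors SREBP1 and SREBP2 (genes Srebf1 and Srebf2), which INSIG proteins hold in the endoplasmic reticulum when sterols are plentiful. In the healthy lung, alveolar type 2 cells make fatty acids for the lipids of surfactant.

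Depth was estimated from the steps of the lowest values at 17.3 to 20.1 M mapped reads in RPM libraries and 21.2 to 22.8 M in RPR2 libraries. The targeted Myc gene stood at 48.36 to 383.9 FPKM across RPM and 4.68 to 13.64 in RPR2. RPR2 replicate 3 stood apart. Its 8 neuroendocrine tumour markers summed to 12.8 FPKM, against 2413 and 3584 in RPR2 replicates 1 and 2 and 217.8 to 1276 in RPM, and Chga was at 0.74 FPKM there. Its 9 alveolar type 2 markers summed to 52589 FPKM, where RPR2 replicates 1 and 2 had 1288 and 2058 and RPM tumours 15.67 to 913.3. Calls without the library labelled RPR2 replicate 3 are therefore given beside those with it. Over all 15719 genes tested, 18.4% were called higher and 22.8% lower in RPM (limma on log2(FPKM + 1), Benjamini-Hochberg adjusted p under 0.05), 2897 and 3586 genes. After TPM scaling, which gives every library the same sum, the same test called 1878 higher and 3588 lower. The median difference of all genes was -0.06 on the log2 scale as deposited, -0.23 after TPM scaling, 0.05 after median-of-ratios scaling and 0.08 after quantile normalization. In bulk tissue, fewer cells of a type and less RNA per cell cannot be told apart.

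The sterol branch was higher in RPM than in RPR2 tumours for 8 of its 18 enzymes and lower for 0 (44.4% and 0.0%, against 18.4% and 22.8% of all genes tested). The 8 were Acat2, Mvd, Idi1, Fdps, Sqle, Cyp51, Msmo1 and Dhcr7. For 5 of them, Acat2, Idi1, Cyp51, Msmo1 and Dhcr7, every RPM tumour lay above every RPR2 tumour, an order that held for 11.1% of all genes tested. Of the 18 differences 16 were positive, and their median was 0.56 on the log2 scale. Without RPR2 replicate 3, 6 enzymes were called higher, all among the 8, and 1, Tm7sf2, was called lower, with a median of 0.30, where 16.4% of genes were called higher, 27.4% lower and the median of all genes was -0.20. Fdps and Sqle were the calls lost. Both were also lost, leaving 6 called higher, in a fit with the shared title number as a random effect (limma, Benjamini-Hochberg adjusted p = 0.0532 and 0.0513). RPR2 replicate 3 was the lowest of the 14 libraries for 13 of the 18 enzymes.

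**Figure D1:**
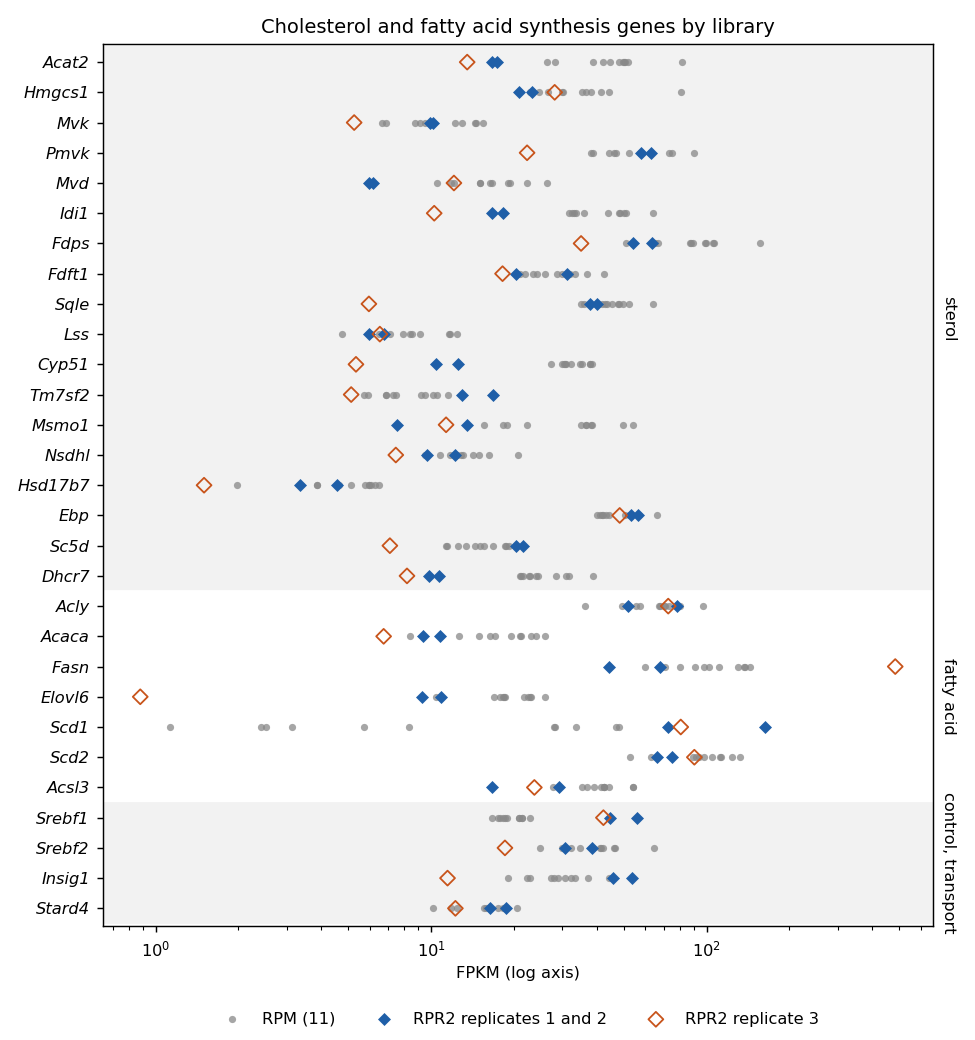
FPKM of the 29 genes (rows, grouped by branch) on a log axis, with 1 point for each library: 11 RPM tumours in grey, RPR2 replicates 1 and 2 as filled diamonds and RPR2 replicate 3 as an open diamond. Acat2, Idi1, Cyp51, Msmo1 and Dhcr7 have all grey points to the right of all diamonds, Scd1 and Srebf1 have them all to the left, and the open diamond is leftmost for 13 of the 18 sterol enzymes.

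At the entry of the branch, Acat2 (ENSMUSG00000023832, GRCm38 chr17:12942890-12960747, minus strand) encodes the cytosolic thiolase that joins acetyl-CoA units. Acat2 ranged from 26.28 to 81.45 FPKM in RPM with a median of 48.0, and was 17.32, 16.7 and 13.53 FPKM in the 3 RPR2 tumours. The lowest RPM tumour was above the highest RPR2 tumour. The difference was 1.44 ± 0.25 on the log2(FPKM + 1) scale (SE; adjusted p = 0.000375, limma with Benjamini-Hochberg adjustment), a 2.72-fold higher level in RPM on that scale, which understates the change of low genes. Acat3, a close relative of Acat2 that could share its reads, was listed at 0 to 0.46 FPKM. Hmgcs1, the HMG-CoA synthase of the next step, was not called. It ranged from 22.84 to 80.81 FPKM in RPM with a median of 35.23, and was 20.83, 23.18 and 28.11 in RPR2, so the groups overlapped (difference 0.54 ± 0.28, limma, Benjamini-Hochberg adjusted p = 0.142).

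Of the kinases and the decarboxylase that make isopentenyl diphosphate from mevalonate, only Mvd was called. Mvk and Pmvk, the mevalonate and phosphomevalonate kinases, had differences of 0.34 and 0.33, with adjusted p of 0.318 and 0.405 by limma with Benjamini-Hochberg adjustment, and Pmvk had a negative difference, -0.14, without RPR2 replicate 3. Mvd, the decarboxylase, ranged from 10.49 to 26.37 FPKM in RPM with a median of 16.37, and was 6.15, 5.95 and 12.11 in RPR2. Here RPR2 replicate 3 was the highest RPR2 tumour, and 8 of 11 RPM tumours lay above all 3. The difference was 0.99 ± 0.26 (limma, Benjamini-Hochberg adjusted p = 0.00693), 1.29 without RPR2 replicate 3 (adjusted p = 0.00166), and 0.83 without RPR2 replicate 2 (adjusted p = 0.0533). Mvd overlaps Gm20388 on the other strand, which was also highest of the RPR2 tumours in RPR2 replicate 3. Gm20388 was 22.05, 25.12 and 49.76 FPKM in RPR2 and 21.43 ± 4.95 in RPM (mean and SD, n = 11). The part of shared reads was not tested.

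Idi1 (ENSMUSG00000058258, GRCm38 chr13:8885501-8892451, plus strand) encodes the isomerase that balances the 2 isoprene units. It ranged from 31.74 to 63.72 FPKM in RPM with a median of 43.8, and was 18.21, 16.69 and 10.27 in RPR2. The groups did not overlap, and the difference was 1.45 ± 0.22 (limma, Benjamini-Hochberg adjusted p = 0.000133), a 2.74-fold higher level in RPM. Fdps, which builds farnesyl diphosphate at the fork to protein prenylation, ranged from 51.0 to 156.5 FPKM in RPM with a median of 89.24, and was 54.15, 63.57 and 35.05 in RPR2. All but 1 RPM tumour, RPM replicate 5, lay above all 3 RPR2 tumours. Its difference of 0.83 ± 0.26 (limma, Benjamini-Hochberg adjusted p = 0.0213) became 0.59 without RPR2 replicate 3, and the call was lost (adjusted p = 0.122).

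The enzymes that commit farnesyl diphosphate to sterols were less separated. Fdft1, the squalene synthase, and Lss, the lanosterol synthase, both differed by 0.32, with adjusted p of 0.248 and 0.298 by limma with Benjamini-Hochberg adjustment. Sqle, the squalene monooxygenase, ranged from 34.93 to 63.68 FPKM in RPM with a median of 45.35, and was 39.95, 37.66 and 5.95 in RPR2. RPR2 replicates 1 and 2 lay within the RPM range and RPR2 replicate 3 far below it. The call of Sqle (difference 1.06 ± 0.38, limma, Benjamini-Hochberg adjusted p = 0.0359) rested on that library, since without it the difference was 0.22 (adjusted p = 0.343).

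Cyp51 had the largest difference of the branch. It encodes the lanosterol demethylase, a cytochrome P450 enzyme that takes electrons from the reductase POR (ENSMUSG00000001467 for Cyp51, GRCm38 chr5:4081145-4104746, minus strand). Cyp51 ranged from 27.29 to 38.27 FPKM in RPM with a median of 32.16, and was 12.49, 10.43 and 5.34 in RPR2. Every RPM tumour had more than the highest RPR2 tumour, and the RPM tumours lay close together. The difference was 1.78 ± 0.19 (limma, Benjamini-Hochberg adjusted p = 4.48e-06), 3.42-fold, and 1.45 without RPR2 replicate 3 (adjusted p = 6.26e-06). The gene overlaps Akap9 on the other strand, which was 10.48 FPKM in RPR2 replicate 3 and 17.87 and 20.7 in RPR2 replicates 1 and 2.

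Msmo1, the sterol methyl oxidase that acts with Nsdhl and Hsd17b7 to remove the methyl groups at carbon 4 of the ring, was higher in RPM as well (ENSMUSG00000031604, GRCm38 chr8:64718139-64733792, minus strand). It ranged from 15.58 to 54.19 FPKM in RPM with a median of 36.44, and was 7.52, 13.53 and 11.34 in RPR2. The groups did not overlap, although the RPM tumours were widely spread (difference 1.46 ± 0.34, limma, Benjamini-Hochberg adjusted p = 0.00329). Its partners Nsdhl and Hsd17b7 differed by 0.42 and 0.59, with adjusted p of 0.106 and 0.111 by limma with Benjamini-Hochberg adjustment, and both were called after median-of-ratios scaling (adjusted p = 0.0352 and 0.0233).

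The last reductions and isomerizations of the ring held 1 call and 3 genes that were not called. Dhcr7 (ENSMUSG00000058454, GRCm38 chr7:143823145-143848410, plus strand) encodes the reductase of 7-dehydrocholesterol. It ranged from 21.03 to 38.68 FPKM in RPM with a median of 24.08, and was 9.86, 10.73 and 8.18 in RPR2. The lowest RPM tumour was well above the highest RPR2 tumour, and the difference was 1.34 ± 0.18 (limma, Benjamini-Hochberg adjusted p = 4.71e-05), 2.53-fold. Sc5d, the desaturase just before Dhcr7, ranged from 11.34 to 19.23 FPKM across RPM and was 20.35, 21.49 and 7.09 in RPR2. All RPM tumours thus lay between RPR2 replicate 3 and the other two, and the difference was 0.02 (limma, Benjamini-Hochberg adjusted p = 0.959). Ebp, the sterol isomerase, differed by -0.14 (adjusted p = 0.514). Tm7sf2, a sterol reductase, ranged from 5.73 to 11.54 FPKM across RPM and was 16.8, 12.92 and 5.13 in RPR2. Its difference was -0.34 (limma, Benjamini-Hochberg adjusted p = 0.351), and -0.79 without RPR2 replicate 3 (adjusted p = 0.0158). Tm7sf2 shares part of its span with Vps51 on the same strand, which was 29.52, 29.56 and 31.91 FPKM in RPR2.

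**Figure D2:**
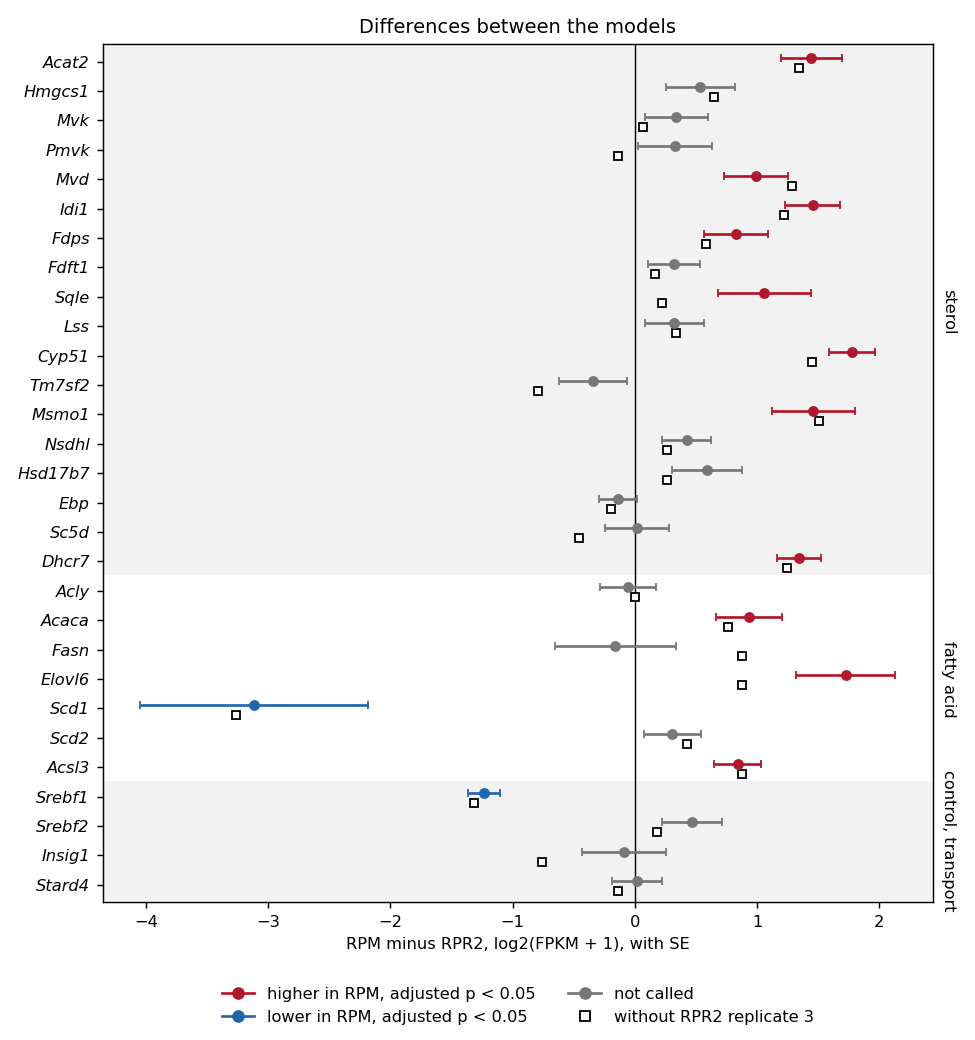
Difference between RPM and RPR2 in log2(FPKM + 1) for each of the 29 genes, as filled circles with standard errors, in red or blue where called by limma (Benjamini-Hochberg adjusted p under 0.05) and grey where not. Open squares give the difference without RPR2 replicate 3: Cyp51 moves from 1.78 to 1.45 and Sqle from 1.06 to 0.22, while Fasn goes from -0.16 to 0.88.

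The fatty acid branch did not move in 1 direction. Of its 7 genes, Acaca, Elovl6 and Acsl3 were called higher in RPM and Scd1 lower (42.9% and 14.3%, against 18.4% and 22.8% of all genes tested), and Acly, Fasn and Scd2 were not called. After TPM scaling Elovl6 was the single gene called higher, and Acaca and Acsl3 had adjusted p of 0.141 and 0.0673 (limma, Benjamini-Hochberg). The median difference was 0.31. For 0 of the 7 did every RPM tumour lie above every RPR2 tumour, and for 1, Scd1, every RPM tumour lay below, an order that held for 13.6% of all genes tested. Without RPR2 replicate 3, Fasn, Elovl6 and Acsl3 were called higher and Scd1 lower, with a median of 0.76, where 16.4% of all genes were called higher, 27.4% lower and their median was -0.20.

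Acly, the citrate lyase that supplies cytosolic acetyl-CoA to both branches, ranged from 36.28 to 97.27 FPKM across RPM and was 51.96, 78.17 and 72.62 in RPR2, a difference of -0.06 (limma, Benjamini-Hochberg adjusted p = 0.864). Acaca, the acetyl-CoA carboxylase that makes malonyl-CoA, ranged from 8.4 to 25.84 FPKM in RPM with a median of 19.45, and was 10.82, 9.39 and 6.73 in RPR2. Only RPM replicate 2, an LSL/+ tumour, fell below an RPR2 tumour. The difference of Acaca was 0.93 ± 0.27 (limma, Benjamini-Hochberg adjusted p = 0.0119), and 0.76 without RPR2 replicate 3 (adjusted p = 0.0591).

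Fasn, the fatty acid synthase, was dominated by 1 library. It ranged from 59.91 to 144.0 FPKM in RPM with a median of 101.7, and was 44.36, 67.94 and 484.3 in RPR2. RPR2 replicate 3, the library with the very high alveolar type 2 markers, was the highest of all 14, while RPR2 replicate 1 lay below the RPM range and RPR2 replicate 2 above only 1 RPM tumour. With all libraries the difference was -0.16 ± 0.50 (limma, Benjamini-Hochberg adjusted p = 0.822), and without RPR2 replicate 3 Fasn was called higher in RPM, by 0.88 (adjusted p = 0.0282).

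Elovl6, which lengthens palmitate, took the opposite course in that library. It ranged from 10.41 to 25.89 FPKM in RPM with a median of 18.55, and was 10.83, 9.29 and 0.88 in RPR2. RPM replicate 2 alone lay among the RPR2 tumours, and RPR2 replicate 3 was far below all others. The difference of 1.72 ± 0.41 (limma, Benjamini-Hochberg adjusted p = 0.00353) became 0.87 without that library and stayed called (adjusted p = 0.00981). Fasn and Elovl6, successive enzymes of 1 route, thus stood at the opposite ends of the 14 libraries in RPR2 replicate 3. Acsl3, a ligase that couples fatty acids to coenzyme A, ranged from 27.76 to 54.17 FPKM in RPM with a median of 42.36, and was 29.05, 16.64 and 23.72 in RPR2. Again RPM replicate 2 was the single RPM tumour within the RPR2 range (difference 0.84 ± 0.19, limma, Benjamini-Hochberg adjusted p = 0.00279).

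The paralogs Scd1 and Scd2, neighbours on chromosome 19, encode stearoyl-CoA desaturases, which put the double bond into oleate and palmitoleate. Scd1 (ENSMUSG00000037071, GRCm38 chr19:44394455-44407879, minus strand) ranged from 1.13 to 48.01 FPKM in RPM with a median of 8.33, and was 72.69, 162.9 and 80.64 in RPR2. Every RPM tumour lay below every RPR2 tumour, by 3.12 ± 0.93 on the log2 scale (limma, Benjamini-Hochberg adjusted p = 0.0148), an 8.67-fold lower level. Without RPR2 replicate 2, the library with the most Scd1, the difference was -2.76 and was not called (adjusted p = 0.0775). Scd2 (ENSMUSG00000025203, GRCm38 chr19:44293674-44306864, plus strand) ranged from 52.87 to 132.7 FPKM in RPM with a median of 97.75, and was 66.05, 74.7 and 90.34 in RPR2. The groups overlapped, and the difference was 0.31 ± 0.23 (limma, Benjamini-Hochberg adjusted p = 0.317). The level of Scd2, in FPKM, was 1.86 to 86.5 times that of Scd1 in RPM, and 0.909, 0.459 and 1.12 times in RPR2. The further paralogs Scd3 and Scd4 were at most 1.02 and 0.83 FPKM in any library.

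Scd1 was also among the most variable genes within RPM, with an SD of 1.72 on the log2 scale, above 99.0% of the genes tested. The 5 RPM tumours with the most Scd1, replicates 1, 5, 9, 10 and 11, had 27.98 to 48.01 FPKM, and the other 6 had 1.13 to 8.33. Those 5 tumours also had the 5 highest sums of alveolar type 2 markers, 505.9 to 913.3 FPKM against 15.67 to 136.0 in the other 6. The same 5 had the 5 highest sums of club markers, 576.1 to 1522 FPKM against at most 264.0 in the other 6. Their sums of alveolar type 1 and endothelial markers were highest too, 85.22 to 191.1 and 38.83 to 57.97 FPKM, against at most 37.05 and 30.15. The 3 RPR2 tumours were above all RPM tumours in both Scd1 and the alveolar type 2 sum. All 9 markers of that list, Sftpc and Sftpb included, were called lower in RPM (5 without RPR2 replicate 3). RPR2 replicate 3 had by far the largest alveolar type 2 sum but less Scd1 than RPR2 replicate 2. Summed adipocyte markers, which come from another cell type with much Scd1, were 0.04 to 27.25 FPKM across RPM and 0.2, 0.3 and 1.09 in RPR2, and 2 of the 6, Plin1 and Lep, were below 1 FPKM in all 14 libraries. The part of alveolar or other lung cells in the Scd1 result was not tested.

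**Figure D3:**
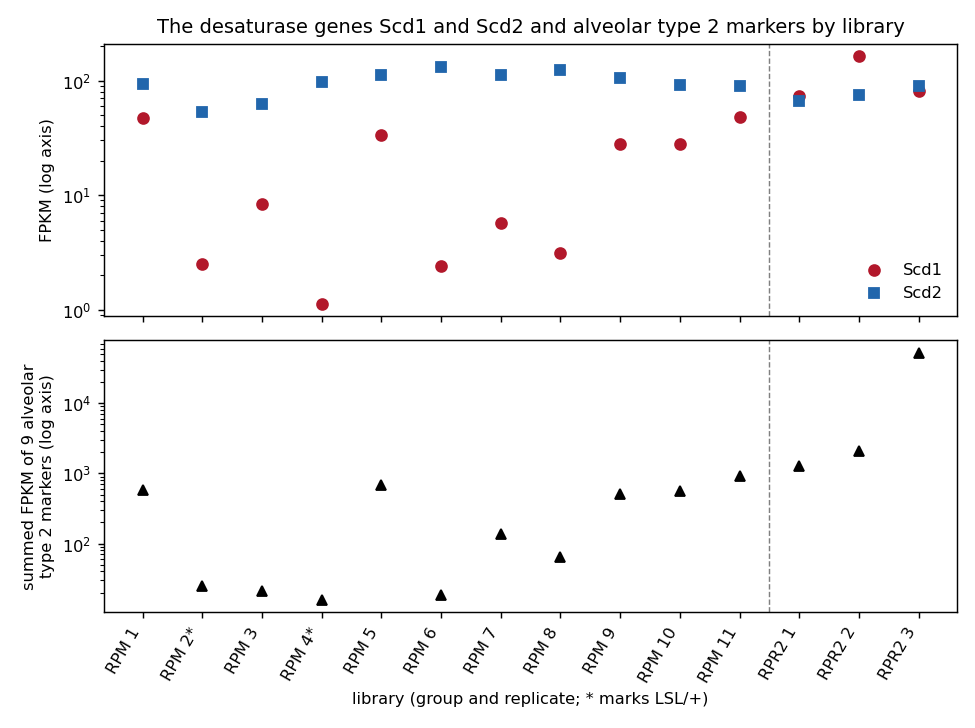
FPKM of Scd1 (circles) and Scd2 (squares) in each of the 14 libraries on a log axis, above the summed FPKM of 9 alveolar type 2 markers (triangles, log axis), with RPM left and RPR2 right of the dashed line and LSL/+ tumours starred. Scd1 ranges from 1.13 to 48.01 FPKM among RPM tumours and is high in the 5 tumours with the highest marker sums, while Scd2 stays between 52.87 and 132.7.

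Of the control and transport genes, Srebf1 was called lower in RPM and Srebf2, Insig1 and Stard4 were not called (0.0% higher and 25.0% lower, against 18.4% and 22.8% of all genes tested). Srebf1 (ENSMUSG00000020538, GRCm38 chr11:60199089-60222581, minus strand) encodes the SREBP proteins best known for driving fatty acid genes. It ranged from 16.63 to 22.9 FPKM in RPM with a median of 18.93, and was 44.66, 55.71 and 42.24 in RPR2. Every RPM tumour lay below every RPR2 tumour, at 2.35-fold lower level, and RPR2 replicate 3 was close to the other RPR2 tumours. The difference was -1.24 ± 0.13 (limma, Benjamini-Hochberg adjusted p = 5.24e-06). Within RPM, Srebf1 varied little, with an SD of 0.14 on the log2 scale, above that of only 2.18% of the genes tested. Rai1, which overlaps Srebf1 on the other strand, was 9.57 to 27.58 FPKM over the 14 libraries. Srebf1 moved with the alveolar type 2 markers between the models. Within RPM it was 17.86 to 21.46 FPKM in the 5 tumours with the highest marker sums and 16.63 to 22.9 in the other 6. The part of alveolar cells in the Srebf1 result was not tested.

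Srebf2, which encodes the SREBP best known for driving sterol genes, ranged from 24.85 to 64.54 FPKM across RPM and was 30.67, 38.37 and 18.55 in RPR2. Its difference was 0.47 ± 0.24 (limma, Benjamini-Hochberg adjusted p = 0.140), and after median-of-ratios scaling 0.58 and called (adjusted p = 0.0260). Insig1, itself a target of the SREBPs and the retainer of their precursors, ranged from 18.99 to 44.25 FPKM across RPM and was 53.82, 45.69 and 11.48 in RPR2. All RPM tumours lay below RPR2 replicates 1 and 2 and above RPR2 replicate 3, so that the difference was -0.09 (limma, Benjamini-Hochberg adjusted p = 0.861) with that library and -0.76 (adjusted p = 0.0203) without it. Stard4, a cytosolic carrier of cholesterol, differed by 0.02 (adjusted p = 0.946).

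The branches were compared by their mean log2(FPKM + 1) in each library, as a description with no test because the genes were chosen with results of these data known. The mean of the 18 sterol genes was 4.34 to 5.07 in RPM tumours and 4.12, 4.17 and 3.52 in RPR2 tumours, so the groups did not overlap. The mean of the 7 fatty acid genes was 4.36 to 5.59 in RPM and 5.08, 5.27 and 5.21 in RPR2, and the groups overlapped. Without Scd1 the fatty acid mean was 4.79 to 5.94 in RPM and 4.89, 4.92 and 5.02 in RPR2, with RPM replicate 2 alone below the RPR2 tumours. Over all genes tested the mean was 3.13 to 3.45 in RPM and 3.60, 3.61 and 3.19 in RPR2, so the sterol mean of RPR2 replicates 1 and 2 was low in libraries whose general mean was high. The sterol mean less the fatty acid mean was -1.19 to 0.33 in RPM and -0.95, -1.10 and -1.69 in RPR2, again with overlap.

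Set side by side, the median difference between the models was 0.56 for the sterol branch and 0.31 for the fatty acid branch, and the former exceeded the latter by 0.26. That order did not hold without RPR2 replicate 3, where it was -0.46, nor when Acly was counted in neither branch, where it was -0.009. Relative to the median of all genes, the sterol branch was higher by 0.62 as deposited, 0.64 after TPM scaling, 0.63 after median-of-ratios scaling and 0.51 without RPR2 replicate 3. The fatty acid branch was higher by 0.36, 0.34, 0.38 and 0.97 in the same settings. After quantile normalization the sterol branch was higher by 0.64 and the fatty acid branch by 0.18. With array weights, which weight down libraries that fit poorly, the values were 0.69 and 0.90. With all libraries the differences of the members ran from -0.34 to 1.78 in the sterol branch and from -3.12 to 1.72 in the fatty acid branch.

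**Figure D4:**
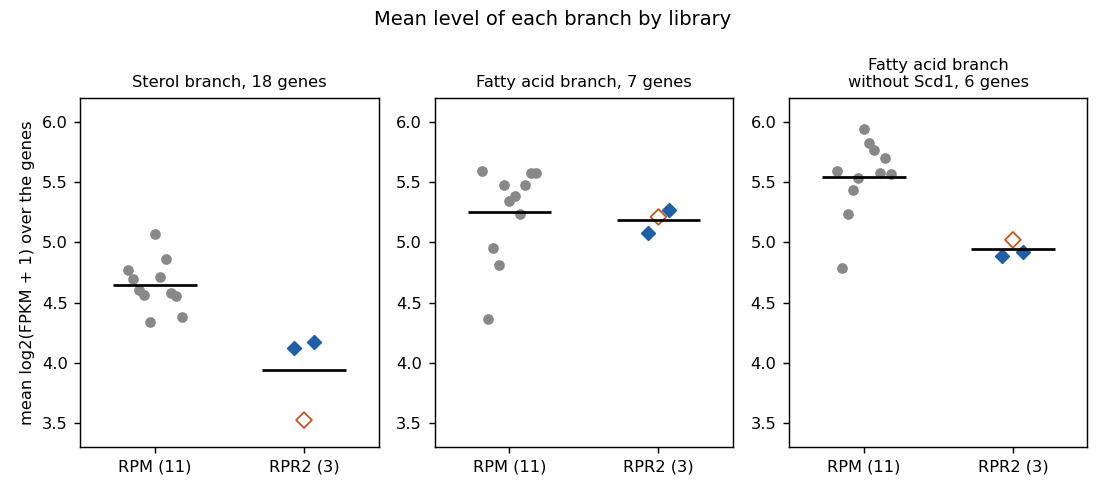
Mean log2(FPKM + 1) of the 18 sterol genes, the 7 fatty acid genes and the fatty acid genes without Scd1 in each library, with 11 RPM tumours as grey circles, RPR2 replicates 1 and 2 as filled diamonds, RPR2 replicate 3 as an open diamond and lines at the group means. The sterol means of RPM, 4.34 to 5.07, lie above those of RPR2, 3.52 to 4.17, while the fatty acid means overlap until Scd1 is left out, when RPM replicate 2 alone lies below the RPR2 tumours.

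Among the 11 RPM tumours, RPM replicate 6 had the highest value of 7 of the 18 sterol genes, the highest of 4 of the 7 fatty acid genes, and the highest sterol mean, 5.07. RPM replicate 2 had the highest value of 5 sterol genes and the lowest of 4, and the lowest of 5 fatty acid genes. RPM replicate 11 had the lowest value of 5 sterol genes, and RPM replicate 5 the lowest of 4 and the lowest sterol mean, 4.34. Cyp51 and Srebf1 were the steadiest genes of the set in RPM, with SDs of 0.16 and 0.14 on the log2 scale, against a median of 0.38 over all genes tested. Msmo1, with 0.59, was the most variable sterol enzyme.

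The LSL/LSL and LSL/+ tumours were compared to ask whether the genes differed with the number of Myc alleles. By limma with Benjamini-Hochberg adjustment, 0 of the 29 genes were called, as were 0.00673% of the 14862 genes tested. At an unadjusted p under 0.05, 7 were higher and 3 lower in LSL/LSL, where 12.2% and 5.06% of all genes were. All 7 fatty acid genes had positive differences, with a median of 0.59 against 0.16 over all genes, and 5 of them, Acly, Acaca, Fasn, Elovl6 and Scd1, had an unadjusted p under 0.05. After median-of-ratios scaling 6 of the 7 were positive, with a median of 0.39 against -0.01 over all genes, and 2 had an unadjusted p under 0.05. For Acly, Acaca, Elovl6 and Scd2, RPM replicate 2 was the lowest RPM tumour, at 36.28, 8.4, 10.41 and 52.87 FPKM. RPM replicate 4 lay within the LSL/LSL range for these genes, at 57.18, 16.36, 18.55 and 97.75 FPKM. Acsl3 was lowest in RPM replicate 2, at 27.76 FPKM, and highest of all RPM tumours in RPM replicate 4, at 54.17 FPKM. Fasn was 115 ± 23.4 FPKM (SD, n = 9) in LSL/LSL and 70.95 and 59.91 in the 2 LSL/+ tumours (difference 0.78 ± 0.22, limma, Benjamini-Hochberg adjusted p = 0.231). Scd1 was 22.7 ± 18.4 FPKM (SD, n = 9) in LSL/LSL and 2.52 and 1.13 in LSL/+, and the alveolar type 2 markers summed to 24.92 and 15.67 FPKM in those 2 tumours. The sterol genes had a median difference of 0.04, and of -0.15 after median-of-ratios scaling, with Lss and Hsd17b7 higher and Pmvk, Mvd and Ebp lower at an unadjusted p under 0.05 as deposited. With 2 tumours in 1 arm, differences of this size could not be told from the spread between tumours.

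RefSeq promoter sequences (GRCm38.p6) were at hand for 23 of the 29 genes, and the 250 bases upstream of each start were searched on both strands for TCACNCCA, the core of the sterol regulatory element that SREBPs bind, CCAAT, the box bound by NF-Y, and CACGTG, the E-box that MYC with MAX and other factors bind. CCAAT was in the promoters of 14 of 15 sterol genes and 2 of 5 fatty acid genes, Fasn and Acsl3, where 37.5% of all genes with a promoter in the table had one. TCACNCCA was in 2 of 15 sterol genes, Hmgcs1 and Msmo1, and in Srebf2, and in 0 of 5 fatty acid genes, against 4.20% of all genes. CACGTG was in 3 of 15 sterol genes, Dhcr7, Hsd17b7 and Sc5d, and in 0 of 5 fatty acid genes, against 6.86% of all genes. A gene counted if any of its listed starts had a match. The first listed start of Dhcr7 had none, and its CCAAT and CACGTG lay before later starts, in stretches covered by annotated exons. For Acaca the window searched, from chr11:84195188, lay inside the gene, which starts at 84129672. The promoter at that gene start was not searched. These are matches of letters in a fixed window and do not show that a factor binds.

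The stretches that no annotated exon covers are printed below for 5 genes, 5′ to 3′ on the gene's strand and with every motif match in capitals, to show how the boxes are placed. Hmgcs1 and Srebf2 carry the sterol regulatory core together with CCAAT, Mvk carries the most CCAAT boxes of the printed stretches, Fasn is a fatty acid gene with CCAAT boxes, and Acly has no match. In Fasn, CCAAT on 1 strand overlaps CCAAT on the other.
Hmgcs1, chr13:119690101-119690350, plus strand: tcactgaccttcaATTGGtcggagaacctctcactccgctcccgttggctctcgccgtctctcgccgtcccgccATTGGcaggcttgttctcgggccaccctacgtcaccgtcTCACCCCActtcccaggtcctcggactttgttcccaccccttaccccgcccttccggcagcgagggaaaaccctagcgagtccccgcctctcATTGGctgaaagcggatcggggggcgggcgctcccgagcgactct
Srebf2, chr15:82147019-82147180, plus strand: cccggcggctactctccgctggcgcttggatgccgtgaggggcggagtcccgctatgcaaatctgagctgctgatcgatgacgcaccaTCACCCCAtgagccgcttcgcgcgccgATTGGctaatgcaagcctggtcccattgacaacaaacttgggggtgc
Mvk, chr5:114444061-114444268, plus strand: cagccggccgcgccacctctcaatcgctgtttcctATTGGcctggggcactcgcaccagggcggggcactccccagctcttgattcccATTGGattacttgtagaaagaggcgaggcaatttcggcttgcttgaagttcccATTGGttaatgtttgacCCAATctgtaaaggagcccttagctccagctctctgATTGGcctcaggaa
Fasn, chr11:120824548-120824797, minus strand: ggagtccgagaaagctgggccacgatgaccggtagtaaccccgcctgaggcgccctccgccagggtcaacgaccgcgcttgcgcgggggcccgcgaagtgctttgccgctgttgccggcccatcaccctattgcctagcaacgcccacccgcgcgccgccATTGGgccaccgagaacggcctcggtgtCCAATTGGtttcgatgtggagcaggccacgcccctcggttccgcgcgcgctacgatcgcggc
Acly, chr11:100528001-100528250, minus strand: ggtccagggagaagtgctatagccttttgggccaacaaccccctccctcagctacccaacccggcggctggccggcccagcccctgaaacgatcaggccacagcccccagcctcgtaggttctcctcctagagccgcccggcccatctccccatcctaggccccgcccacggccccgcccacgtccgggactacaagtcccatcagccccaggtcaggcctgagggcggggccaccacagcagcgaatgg
Of these 5 genes, Hmgcs1, Srebf2, Mvk and Acly were not called with all libraries, and Fasn was called only without RPR2 replicate 3. The calls and the motif matches were thus not the same set: Acat2, called higher, had none of the 3 motifs in its promoter, and Cyp51 had CCAAT alone.

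The neighbouring steps and the handling of both products were read from 6 further gene lists, whose counts stand against 18.4% higher and 22.8% lower over all genes tested, and 16.4% and 27.4% without RPR2 replicate 3. Of the 23 genes named from them, 22 could be tested without that library, all but Ehhadh, and all 22 were called in the same direction. They had been picked for their small p in the fit of all libraries, so keeping their calls was likely in advance. That says little about the lists, whose counts are given with and without that library. Of 10 other genes of sterol synthesis 6 were called higher in RPM and 2 lower, with a median of 0.64. The counts were 4 and 3 without RPR2 replicate 3, and 3 and 2 after TPM scaling. Acat1, the mitochondrial thiolase, was 96.46 to 212.4 FPKM across RPM and 37.81, 33.77 and 76.77 across the RPR2 tumours (difference 1.61 ± 0.25, limma, Benjamini-Hochberg adjusted p = 0.000158). The 2 genes called lower, Cyb5r3 and Por, both encode reductases that pass electrons to the oxidizing enzymes of the endoplasmic reticulum, Cyp51 among them in the case of POR. Por was 16.09 to 37.8 FPKM across RPM and 82.13, 150.8 and 61.57 in RPR2, the reverse of the order of Cyp51 (difference -1.90 ± 0.25, limma, Benjamini-Hochberg adjusted p = 4.05e-05). Cyb5r3 differed by -2.03 (adjusted p = 8.57e-07).

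Of 15 genes that control SREBPs or sense sterols and sugars, 2 were called higher and 4 lower (13.3% and 26.7%, near the shares over all genes), with a median of -0.36. Leaving out RPR2 replicate 3 gave 2 and 6. Mbtps2, the site-2 protease that frees SREBPs from the membrane, was higher by 1.56, at 7.48 to 22.06 FPKM across RPM and 5.82, 5.37 and 2.17 across the RPR2 tumours (limma, Benjamini-Hochberg adjusted p = 0.000422). Thrsp and Mid1ip1 encode related proteins that act on fatty acid synthesis, the latter on the enzyme encoded by Acaca, and they differed in opposite directions. Thrsp was 19.36 to 58.91 FPKM across RPM and 3.96, 6.96 and 0.21 in RPR2, a difference of 3.24 (limma, Benjamini-Hochberg adjusted p = 4.23e-05), whereas Mid1ip1 was lower by 0.99 (adjusted p = 0.00296). Nr1h2, which encodes the sterol sensor LXR beta, differed by -0.73 (adjusted p = 0.00275).

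Of 22 genes of sterol uptake, traffic, esterification and export, 3 were called higher and 8 lower (13.6% and 36.4%), with a median of -0.39. Without RPR2 replicate 3, 4 were higher and 6 lower, and the 27.3% lower was at the 27.4% of all genes. Tmem97, a sterol-regulated partner of the NPC1 transporter, was 40.2 to 118.0 FPKM across RPM and 19.83, 14.91 and 13.72 across the RPR2 tumours (difference 2.16 ± 0.26, limma, Benjamini-Hochberg adjusted p = 1.64e-05), and Lrp8, a lipoprotein receptor of the LDL receptor family, was higher by 2.18. Soat1, which esterifies cholesterol for storage, was lower by 2.34, at 1.71 to 17.1 FPKM across RPM and 27.14, 19.56 and 50.24 in RPR2 (adjusted p = 0.000612), and Stard5, a sterol-binding protein, was lower by 1.95.

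Other genes of fatty acid synthesis, elongation and desaturation moved both ways, with 5 of 19 called higher, 7 lower (26.3% and 36.8%) and a median of -0.19. The counts were 4 and 6 without RPR2 replicate 3, and 8 and 5 after median-of-ratios scaling. That scaling also moved the counts over all genes, from 2897 higher and 3586 lower to 3361 and 3250. Me1, the malic enzyme that supplies NADPH for lipid synthesis, was 4.28 to 13.72 FPKM across RPM and 40.02, 45.62 and 125.4 across the RPR2 tumours (difference -2.92 ± 0.34, limma, Benjamini-Hochberg adjusted p = 1.19e-05). Among the elongases, Elovl4, which makes very long chains, was higher by 2.53 (1.67 without RPR2 replicate 3) and Elovl7 lower by 2.13, and Hacd2, a dehydratase of the same cycle, was lower by 1.23.

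Fatty acid use was read from the last 2 lists. Of 23 genes of activation, uptake and glycerolipid synthesis, 3 were called higher and 11 lower (47.8%, against 22.8% of all genes tested), with a median of -0.70. Leaving out RPR2 replicate 3 gave 2 and 9 (39.1% lower, against 27.4%). Fabp5, a fatty acid binding protein, was the exception in size, at 292.3 to 540.7 FPKM across RPM and 67.15, 36.43 and 163.5 across the RPR2 tumours (difference 2.43 ± 0.32, limma, Benjamini-Hochberg adjusted p = 3.15e-05). Acsl4, a ligase of the same family as Acsl3, went the other way from it, at 5.44 to 12.72 FPKM across RPM and 23.43, 24.36 and 42.69 across the RPR2 tumours (difference -1.62, adjusted p = 5.83e-05). Plin3, a lipid droplet protein, differed by -2.60 and Lpin3, a phosphatidate phosphatase, by -1.96. Lpin3 was 5.65, 6.3 and 4.54 FPKM in RPR2 and 0.24 to 2.28 in RPM, with a median of 0.61. It reached 1 FPKM in only 4 libraries, the RPR2 tumours among them. They alone met the filter for Lpin3, so a lower call was likely in advance. Of 19 genes of fatty acid oxidation 2 were called higher and 7 lower (36.8% lower), with a median of -0.40. Without RPR2 replicate 3, 5 of 18 were lower, 27.8% against 27.4% of all genes. The medium- and long-chain dehydrogenases Acadm and Acadl were lower by 1.33 and 2.02, and the short-chain dehydrogenase Acads was higher by 1.16 (limma, Benjamini-Hochberg adjusted p = 0.000264, 2.73e-05 and 0.000382). Ehhadh of the peroxisome, counted among the 7, was lower by 1.61, at 3.69, 3.9 and 1.85 FPKM in RPR2 and at most 0.68 in RPM. It passed the filter through the RPR2 tumours alone, so the direction of its call was fixed in advance.

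**Figure D5:**
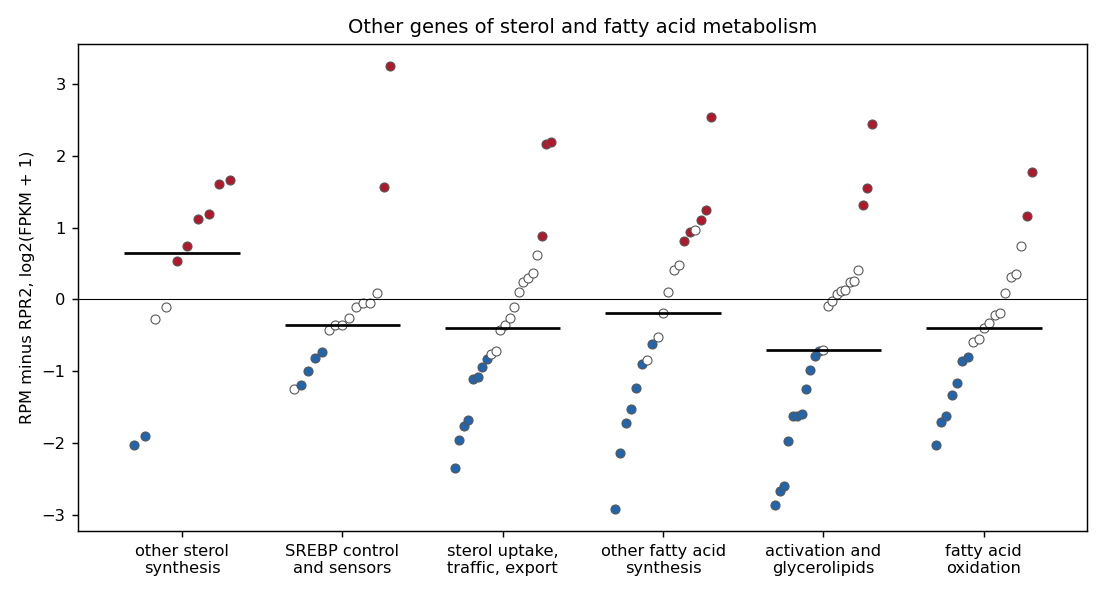
Difference between RPM and RPR2 in log2(FPKM + 1) for each tested gene of 6 further lists, filled red where called higher in RPM, filled blue where called lower (limma, Benjamini-Hochberg adjusted p under 0.05) and open where not called, with a line at each list's median. The median is 0.64 for other sterol synthesis and lies from -0.70 to -0.19 for the remaining 5 lists.

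The largest sums of club, alveolar type 1 and macrophage markers were in RPR2 tumours, but each of these sums overlapped between the models. Summed club cell markers were 0.88 to 1522 FPKM across RPM and 3464, 25526 and 839.1 in RPR2, and summed alveolar type 1 markers 11.83 to 191.1 in RPM and 146.4, 219.5 and 685.8 in RPR2. Summed macrophage markers were 24.44 to 67.5 FPKM across RPM and 103.5, 50.68 and 850.8 in RPR2. Endothelial and fibroblast sums overlapped between the models too, at 13.85 to 57.97 and 55.4 to 208.8 FPKM in RPM. The part of these cells in the calls was not tested. The identifiers in the sample descriptions begin with the same digits in 10 RPM libraries, with others in RPM replicate 9 and with others again in the 3 RPR2 libraries. What they stand for is not stated, and since no beginning is shared by both models, anything they mark cannot be told apart from the model.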

How the data were processed

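The FPKM values are those the authors deposited, in 1 table of 14 libraries and 46518 rows (1 of them, a reporter, was not used). RSEM 1.2.12, Bowtie 1.0.1 and mm10 are named, without roles, per the submitters' processing notes. Per the labels' protocols the libraries were stranded and poly(A)-selected. The strand setting of the counting is not given in the sources used here, so values of genes that overlap another gene may hold its reads, and RSEM-type counts of paralogs depend on how shared reads were divided. Groups came from the genotype labels and source names, and columns were matched to samples by title. Coordinates are from GENCODE on GRCm38, the assembly of mm10, and promoters from RefSeq.

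Values were analysed as log2(FPKM + 1) where a gene reached an FPKM of 1 in 3 or more libraries. The tool was limma 3.58.1 under R 4.3.3 (moderated linear model with a mean trend, two-sided, Benjamini-Hochberg adjustment over all genes tested, threshold 0.05), 15719 genes for the models and 14862 for the allele. The script was tested on simulated data. Read counts are not in the table. Depth was estimated from the steps of low values, and 3 reads on a transcript of 2 kb correspond to 0.0675 to 0.0888 FPKM, counting error only. Genes and lists were chosen with earlier results of these data known, so lists carry no test of their own. All 29 genes are accounted for. Called genes, genes whose groups do not overlap and the Scd1 and Scd2 pair are given by library, and from each further list up to 4 called genes with the smallest p. Some genes that this rule takes are not reported here and stay in the counts. One gene of these lists, Faxdc2, was not matched. Alternatives were 2 smaller pseudocounts, 2 other filters, TPM, median-of-ratios and quantile scaling, array weights, the shared title number as a random effect, LSL/LSL tumours only, and leaving out each library.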

Additional observations from a re-analysis of the deposited data

Results flagged for a closer look

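Hmgcs1 in RPM replicate 6 stood apart from the other LSL/LSL tumours. It was 80.81 FPKM there, and the next highest of the 9 tumours, RPM replicate 7, had 44.09 FPKM. On the log2(FPKM + 1) scale the gap was 0.549 of the range of the 9, which is beyond Dixon's 95% limit. All 29 genes were looked at in this way, and chance marks about 1 in 20. RPM replicate 6 was also the highest RPM tumour for 7 of the 18 sterol genes.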

How the results depend on the processing

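No paired analysis was possible because the labels give the groups no shared replicate numbers. Over 24 alternatives each, Acat2, Idi1, Cyp51, Msmo1, Dhcr7, Elovl6 and Srebf1 kept their direction and their call in all 24. Sqle lost its call in 7 of 24, with adjusted p by limma with Benjamini-Hochberg adjustment of 0.0506 to 0.343, Fdps in 3, Acaca in 2, and Mvd, Acsl3 and Scd1 in 1 each. TPM scaling took the calls of Fdps, Sqle, Acaca and Acsl3 and left 1 fatty acid gene called higher, with 1878 genes called higher in all. Array weights, which weight down libraries that fit poorly, gave 6577 genes lower, 3 sterol genes lower, 5 fatty acid genes higher, a fatty acid median of 0.72 and a sterol less fatty acid difference of -0.22. That difference was also negative with Acly in neither branch, -0.00905. A filter at a mean FPKM of at least 5 gave 2171 genes lower, from fewer genes tested. Leaving out 1 library at a time gave 2276 to 3033 genes higher and 2360 to 4227 lower, 6 to 9 sterol genes higher and 0 to 1 lower, 3 to 3 fatty acid genes higher and 0 to 1 lower, medians of 0.30 to 0.72 for the sterol branch and 0.20 to 0.76 for the fatty acid branch, and -0.46 to 0.51 for their difference. The lowest sterol median, the highest fatty acid median and the lowest difference came without RPR2 replicate 3.

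Genes near 0 changed sign. After TPM scaling Sc5d was -0.17 and Stard4 -0.17. After median-of-ratios scaling Acly was 0.059 and Insig1 0.034. With array weights Pmvk was -0.16, Fdft1 -0.071, Sc5d -0.44 and Fasn 0.72. With LSL/LSL tumours only Acly was 0.050. Leaving out 1 library at a time, Sc5d ranged from -0.46 to 0.28, Acly from -0.23 to 0.057, Stard4 from -0.14 to 0.15, Insig1 from -0.76 to 0.31, Pmvk from -0.14 to 0.59 and Fasn from -0.83 to 0.88. Apart from the smaller number of genes under the stricter filter and the left-out libraries themselves, the cause was not tested. For the allele, 0 of the 29 genes were called by limma under all 14 alternatives. Depth did not limit detection of the 29 genes, whose lowest value, 0.88 FPKM for Elovl6 in RPR2 replicate 3, lay above the 0.0675 to 0.0888 FPKM of 3 reads on 2 kb. RPR2 has 3 libraries and LSL/+ has 2, and small groups limit both comparisons.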
